A study of Mus musculus with 36 samples.

Results

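The genes Tmem68, Pisd-ps3, Asap2, Zcchc3, Atrnl1 and Emb each had a probe on the newborn brain arrays that gave signal in B6 mice. In the other lines that probe was not detected at a detection p under 0.01. They were chosen for that difference from earlier results of these arrays, so their B6 values are a description and carry no test. They are 6 of 8785 genes that could be named on the array. For 5 of them the probe was found through the NCBI Gene ID in its name, and the probe of Pisd-ps3 was found through the accession of a cDNA clone. The genes and their Gene IDs are Tmem68 (72098, chromosome 4), Pisd-ps3 (66776, on no assigned chromosome), Asap2 (211914, chromosome 12), Zcchc3 (67917, chromosome 2), Atrnl1 (226255, chromosome 19) and Emb (13723, chromosome 13). None of the 6 is assigned to chromosome 10, the chromosome named in the congenic line. Nothing is read from this, since the choice required the genes to be low in that line.

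The series addresses Rnf41 in relation to anxiety, depression and seizures induced by beta-carboline. RNA of whole brains taken at postnatal day 0.5 was hybridised to Illumina Sentrix Mouse-6 bead arrays. There were 6 replicates, each read here as a single brain, of each of 3 lines. Of these, A/J and B6 are inbred strains of mice, and the third, C10 congenic, is written A.B6chr10 in the series text. By the usual naming this reads as an A/J background with chromosome 10 material of B6, whose extent the sources used here do not state. The labels give the newborns no treatment and no sex.

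Each array held 46116 probes, of which 14401 to 15725 were detected at a detection p under 0.01. The detection p was taken as 1 minus the deposited detection score, a reading inferred from the values on which every statement of detection and every bound below rests. The signal is the deposited, background-subtracted brightness, which can fall below 0. Spearman correlations between any 2 arrays lay between 0.887 and 0.931. Of 8 neuron markers with a probe, 6 passed the filter on dim probes, and the probes named Nefl, Snap25, Gfap, Aldh1l1, Olig2 and Itgam were detected on no array. A/J replicate 6 stood apart: its Xist signal was 7076.6, with 23 the highest among the other 17 brains, and its Eif2s3y signal was −7.3, with 1496.8 the lowest among the others. The summed signal of 3 red blood cell genes (Hbb-b1, Hbb-b2 and Hba-a1, of 10 listed) was 9353 to 23232 in B6, 33787 to 53024 in A/J and 24068 to 50783 in C10 congenic brains. The part of blood content, or of any cell type, in the values of the 6 genes was not tested. In whole brain, fewer cells of a type and less RNA per cell cannot be told apart.

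The 6 genes have unlike roles. Tmem68 encodes a membrane acyltransferase that can make triacylglycerol, and Pisd-ps3 is a pseudogene copy of Pisd, whose mitochondrial enzyme makes phosphatidylethanolamine from phosphatidylserine. Asap2 encodes a protein that switches off Arf GTPases, which control membrane traffic. Zcchc3 encodes a zinc finger protein that binds nucleic acids and helps their sensing in innate immunity. Atrnl1 is a relative of attractin that binds a melanocortin receptor, and Emb encodes embigin, an immunoglobulin-type membrane protein that accompanies monocarboxylate transporters. A bead array probe reads one short stretch of a transcript, and its value speaks for that stretch alone. The probe sequences were not used here.

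The start regions of the 3 members found in the promoter table from RefSeq (build GRCm38.p6) are shown. Whether they bear on the pattern across lines was not tested. Each runs 5′ to 3′ on the gene's strand, across the annotated transcript start. Capitals mark matches on either strand to the GC box GGGCGG or the CCAAT box CCAAT. The reference is a B6 genome, so the letters do not show where A/J differs.
Zcchc3, chr2:152414995-152415294, minus strand: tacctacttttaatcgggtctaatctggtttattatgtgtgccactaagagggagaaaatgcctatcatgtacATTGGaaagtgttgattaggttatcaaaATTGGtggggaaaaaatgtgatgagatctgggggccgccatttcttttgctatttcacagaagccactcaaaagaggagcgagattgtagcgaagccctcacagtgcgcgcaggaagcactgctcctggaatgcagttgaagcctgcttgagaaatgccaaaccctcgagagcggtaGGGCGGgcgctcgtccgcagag
Atrnl1, chr19:57610784-57611083, plus strand: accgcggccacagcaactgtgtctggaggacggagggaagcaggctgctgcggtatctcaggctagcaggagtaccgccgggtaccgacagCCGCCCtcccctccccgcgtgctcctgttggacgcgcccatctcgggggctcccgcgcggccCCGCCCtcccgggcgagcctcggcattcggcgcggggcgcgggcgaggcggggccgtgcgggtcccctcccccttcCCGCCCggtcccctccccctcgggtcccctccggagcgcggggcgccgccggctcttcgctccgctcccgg
Emb, chr13:117220323-117220622, plus strand: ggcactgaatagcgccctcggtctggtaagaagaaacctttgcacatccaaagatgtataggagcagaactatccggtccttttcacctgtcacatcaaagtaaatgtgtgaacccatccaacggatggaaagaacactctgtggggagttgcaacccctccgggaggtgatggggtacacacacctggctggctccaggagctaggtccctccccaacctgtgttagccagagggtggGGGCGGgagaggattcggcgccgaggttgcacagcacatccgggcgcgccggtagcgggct

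The Atrnl1 window held 41 CpG and 3 GC boxes, that of Emb 14 CpG and 1 GC box, and that of Zcchc3 12 CpG, 1 GC box and 2 CCAAT boxes. None of the 3 windows held TATAAA. Among 32851 windows of the same length, the median was 7 CpG, 35.7% held a GC box, 37.4% a CCAAT box and 13.6% TATAAA. Only 3.46% held as many CpG as the Atrnl1 window, against 36.3% for Emb and 39.6% for Zcchc3.

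Tmem68 had the brightest B6 signal of the 6 genes and varied least between brains. Its signals in B6 replicates 1 to 6 were 2424.4, 2532.5, 2505.0, 2650.8, 2372.8 and 2247.3, a mean of 2455.5 ± 139.8 (SD, n = 6). In A/J the lowest, median and highest signals were −28.0, −20.8 and −3.7, and in C10 congenic brains −23.9, −6.35 and 25.4. The lowest B6 brain stood 2220 units above the highest of the other 12, and B6 replicates differed by a coefficient of variation of 5.69%. Where a line is below the detection threshold a ratio is only a bound, set by the lowest signal detected on each array (79.2 to 101.4). On the scale of the signal plus 75, B6 was at least 15.7-fold above A/J and at least 15.4-fold above C10 congenic.

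Pisd-ps3 was the most variable of the 6 within B6. Its B6 signals were 2664.4, 2335.2, 1835.7, 817.7, 1479.2 and 1844.0 in replicates 1 to 6, with a mean of 1829.4 ± 648.0 (SD, n = 6) and a coefficient of variation of 35.4%. The beads of the probe on one array gave standard errors of 3.21 to 10.2, far under that spread between brains. A/J brains gave 4.1 at the lowest, 15.5 at the median and 25.2 at the highest, and C10 congenic brains 6.9, 17.9 and 28.9. Every B6 brain, replicate 4 included, lay above all 12 others. The bound was at least 11.2-fold above A/J and about as large above C10 congenic.

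Pisd-ps3 belongs to a family of near-identical copies. Whether part of its signal comes from a relative was not tested. The 3 probes named Pisd, the functional gene, were dim in every line. Their means were 98.5 ± 28.8, 12.6 ± 19.6 and 59.1 ± 14.9 in A/J, against 95.5 ± 24.3, 4.33 ± 16.3 and 68.1 ± 23.6 in B6 and 81.2 ± 19.4, 14.4 ± 7.73 and 40.6 ± 12.1 in C10 congenic brains (SD, n = 6). None of the 3 separated B6 from the other lines.

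Asap2 had the most brains outside B6 with a detection p under 0.05. Its B6 signals were 777.9, 1664.5, 1503.1, 1340.5, 1504.3 and 1529.9 in replicates 1 to 6, a mean of 1386.7 ± 315.5 (SD, n = 6), with replicate 1 apart from the other 5. A/J brains gave 0.3, 55.0, 54.0, 40.7, 33.9 and 18.3, and C10 congenic brains 70.4, 56.9, 95.6, 75.6, 24.5 and 54.9. These 2 ranges overlapped, and even the lowest B6 brain stood 682 units above the highest of them. At a detection p under 0.05 in place of 0.01, the probe was detected in 2 A/J and 5 C10 congenic brains, the lowest p being 0.0105 in C10 congenic replicate 3. The B6 signal was at least 8.86-fold above A/J and at least 8.69-fold above C10 congenic.

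Zcchc3 had a narrow range within B6. The 6 brains gave 903.1, 855.3, 809.5, 941.6, 781.4 and 945.1, a mean of 872.7 ± 68.6 (SD, n = 6), and the coefficient of variation was 7.86%. The lowest, median and highest signals were −20.0, 8.1 and 22.7 in A/J and 0.2, 13.4 and 28.7 in C10 congenic brains, so the gap to B6 was 753 units. The bound was at least 5.87-fold above A/J and at least 5.76-fold above C10 congenic.

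Atrnl1 and Emb were the dimmest of the 6 in B6. Atrnl1 signals were 541.0, 801.8, 567.3, 568.4, 772.4 and 680.9 in B6 replicates 1 to 6 (mean 655.3 ± 113.3, SD, n = 6). In A/J they ran from −10.1 to 29.8 with a median of 5.15, and in C10 congenic brains from −13.6 to 72.6 with a median of 10.9. The value of 72.6, in C10 congenic replicate 2, had a detection p of 0.0161 and was the only one of the 12 with a p under 0.05. B6 was at least 4.49-fold above A/J and at least 4.4-fold above C10 congenic. Emb signals were 450.7, 481.4, 381.4, 462.6, 495.2 and 484.2 in B6 (mean 459.2 ± 41.4, SD, n = 6). They ran from −33.9 to 6.6 in A/J and from −40.8 to 4.8 in C10 congenic brains, with medians of −19.9 and −18.1. The bound for Emb was at least 3.31-fold above A/J and at least 3.25-fold above C10 congenic.

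**Figure D1:**
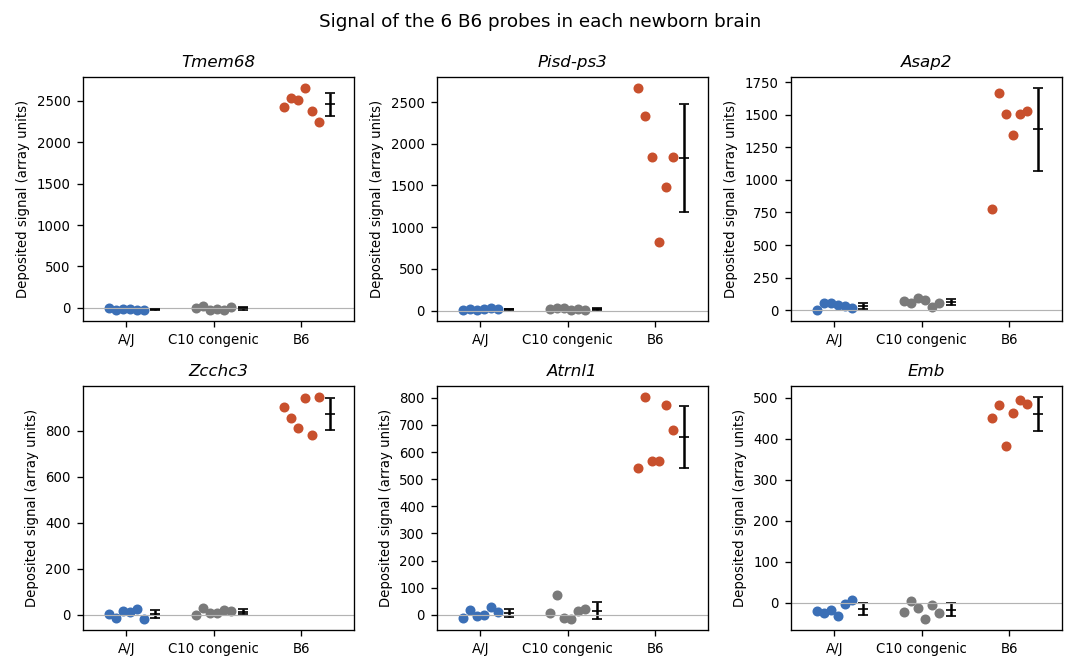
Deposited signal (array units, linear axis) of the 6 probes in each newborn brain, with A/J in blue, C10 congenic in grey and B6 in red, replicates 1 to 6 from left to right, and the mean and SD in black. Every B6 brain lies above all 12 others for each gene, by 375 units for Emb up to 2220 units for Tmem68, and Pisd-ps3 has the widest spread within B6.

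The order of the bounds was that of the B6 means, from Tmem68 to Emb, and neighbours in the list of B6 means were not all distinct. The B6 ranges of Tmem68 and Pisd-ps3 overlapped, as did those of Pisd-ps3 and Asap2 and of Asap2 and Zcchc3. Zcchc3 and Atrnl1 overlapped too, since the highest Atrnl1 brain (801.8) exceeded the lowest Zcchc3 brain (781.4), whereas Emb (at most 495.2) lay below Atrnl1 (at least 541.0). These are signals of different probes, whose brightness also depends on the probe, so their order does not rank the genes by expression. All 12 bounds rest on the threshold for detection. With a p under 0.001 they were 1.46-fold for Emb to 7.0-fold for Tmem68, and without the shift of 75 they were 5.14-fold for Emb to 28.5-fold for Tmem68. At a p under 0.001 the Emb probe was detected in only 5 of the 6 B6 brains, so it no longer had the B6-only pattern. Its detection p in B6 replicate 1 was 0.00124.

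**Figure D2:**
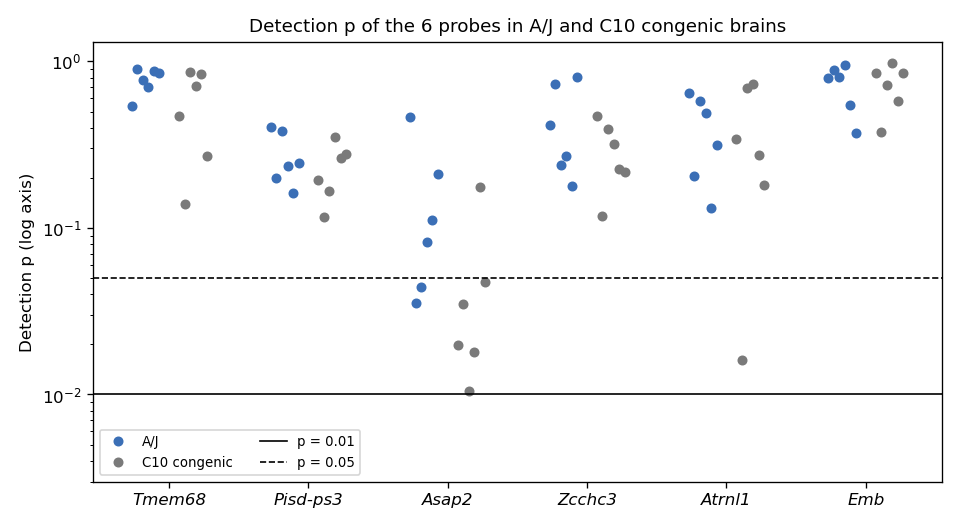
Detection p (log axis) of the 6 probes in each A/J (blue) and C10 congenic (grey) brain, with lines at 0.01 and 0.05. No point lies under 0.01, and those under 0.05 belong to Asap2 (2 A/J and 5 C10 congenic brains) and Atrnl1 (1 C10 congenic brain).

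Between C10 congenic and A/J brains the 6 probes are given as values only. Choosing genes with signal in B6 alone required both lines to be low, and the probes passed the filter on dim probes through the B6 arrays, so a call between these lines could hardly arise. The limma fit called 0.932% of the 15883 probes kept (148, and 17 to 325 with 1 brain left out) and none of the 6, and nothing is read from that. Asap2 had the largest estimate, a log2 difference (C10 congenic minus A/J) of 0.35 (SE 0.163, 95% interval 0.01 to 0.69). Its mean signals were 63.0 ± 23.9 in C10 congenic and 33.7 ± 21.3 in A/J brains (SD, n = 6). That interval is not adjusted for the number of probes, and the limma adjusted p was 0.305. Tmem68 followed at 0.30 (SE 0.145), from means that were below 0 in both lines.

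The remaining estimates were smaller. Zcchc3 differed by 0.20 in log2 units (95% interval −0.06 to 0.46), Atrnl1 by 0.09 (−0.26 to 0.44), Pisd-ps3 by 0.06 (−0.3 to 0.43) and Emb by −0.03 (−0.37 to 0.32). The intervals are on the scale of the signal plus 75, where values near background are compressed. Since all 6 probes were below the detection threshold in both lines, these intervals concern the difference in signal, not in transcript level. The spread behind each SE and interval, those of Asap2 included, was pooled over all lines in the fit. Variation between B6 brains thus enters their width, which is not that of A/J and C10 congenic brains alone. Pisd-ps3 had an SE of 0.175 in log2 units, with signal SDs of 8.08 in A/J, 8.32 in C10 congenic and 648.0 in B6 brains. Leaving out each brain in turn moved the Asap2 estimate between 0.25 and 0.44 and that of Atrnl1 between −0.07 and 0.18.

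Other probes of the same gene give a reading that the choice did not use. Zcchc3 alone among the 6 had any, and its other 2 probes did not show the B6 signal. The first gave 74.8 ± 30.0 in A/J, 67.9 ± 43.6 in B6 and 58.6 ± 20.6 in C10 congenic brains, and the second 68.3 ± 18.2, 70.4 ± 37.8 and 59.1 ± 31.7 (SD, n = 6). In B6 the first ran from 27.3 to 139.0 and the second from 21.2 to 115.0, ranges that overlapped those of both other lines. They were detected in 2 B6 brains each, in 2 and 1 A/J brains, and in 1 and 2 C10 congenic brains, too few to be kept. No difference between C10 congenic and A/J was found for either (exact two-sided permutation p = 0.292 and 0.541, or 0.584 and 0.721 after Benjamini-Hochberg adjustment over the 8 probes of the 6 genes). Tmem68, Pisd-ps3, Asap2, Atrnl1 and Emb had no other probe that could be named, and 34622 probes of the array stayed unnamed, so further probes of these genes may be among them.

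Across the array the all-or-none pattern was uneven between lines. Of 45599 probes that are no controls, 97 (0.213%) were detected in all 6 B6 brains and in none of the other 12. Another 30 (0.0658%) were detected in all 12 A/J and C10 congenic brains and in no B6 brain. No probe was detected in all brains of A/J alone or of C10 congenic alone, and none in B6 with just one of the other lines. Less strictly, in 1.31% of probes every B6 brain lay above every other brain, as for the 6 genes, and in 0.586% below. Both counts are descriptions of the array, from which the 6 genes were picked. In the limma fit, 16.1% of kept probes were called between B6 and A/J (8.1% higher in B6) and 12.1% between B6 and C10 congenic (6.09% higher in B6), and nothing is read from these for the 6 genes, which were chosen on the same contrasts.

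**Figure D3:**
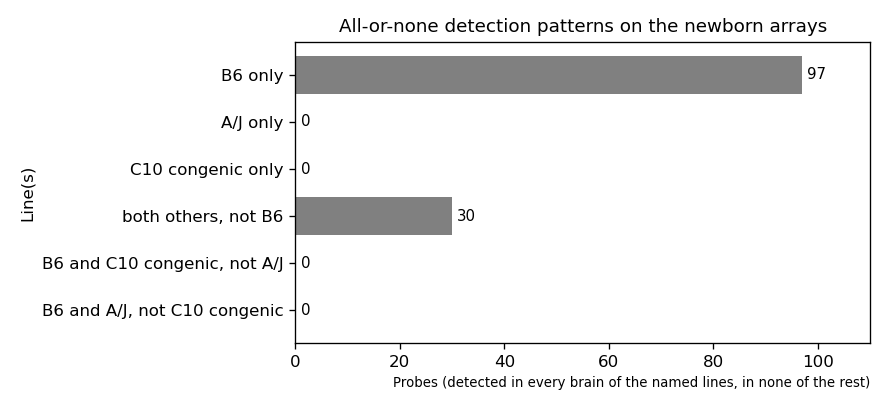
Number of probes detected (p under 0.01) in every brain of the lines named at the left and in no brain of the rest, of 45599. There were 97 for B6 only, 30 for both other lines without B6, and 0 for each other combination.

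The 97 probes included 28 of named genes and 69 unnamed. The named genes with an assigned chromosome lay on 12 chromosomes, none of them chromosome 10. Nothing is read from that absence. The pattern required no detection in C10 congenic brains, whose line name reads as carrying B6 material of chromosome 10. Ranked by the bound of B6 against all 12 other brains, Tmem68 was 1st, Pisd-ps3 rank 5, Asap2 rank 7, Zcchc3 rank 10, Atrnl1 rank 17 and Emb rank 26. The median bound of the 97 was 2.05-fold, and 49 reached 2-fold. These ranks follow from how the genes were chosen, and nothing is read from them. The 28 named genes also included Col1a2, one of 3 meningeal markers measured, at 254.2 ± 121.7 in B6 (SD, n = 6) and a mean of 5.7 in the other 12 brains. The summed signal of the 3 markers was 2282 to 2513 in B6, within the A/J range of 1889 to 2744, and 1185 to 2322 in C10 congenic brains, and Col1a2 alone of the 3 was called between B6 and A/J.

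**Figure D4:**
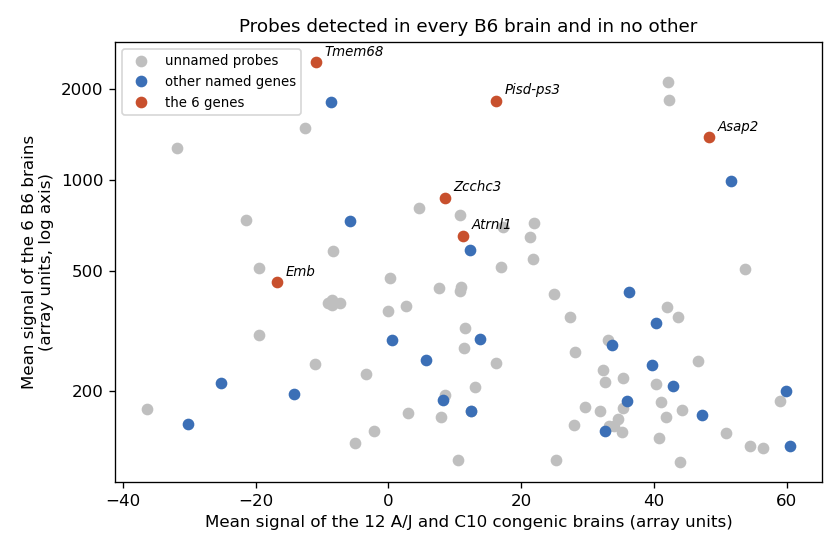
Mean signal of the 6 B6 brains (log axis) against the mean of the 12 A/J and C10 congenic brains (linear axis) for the 97 probes detected in every B6 brain and in no other. The 6 genes are in red, other named genes in blue and unnamed probes in grey, and Tmem68 is the highest on the B6 axis.

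The named genes most like the 6, by the same pattern over 18 brains and the largest bounds, included Rpl29, Iah1, Rere, Plk1 and Exosc10. Rpl29, a ribosomal protein gene, gave 991.6 ± 141.0 in B6, 52.4 ± 17.3 in A/J and 51.1 ± 16.9 in C10 congenic brains (SD, n = 6). Iah1 gave 734.5 ± 130.2, −2.8 ± 13.3 and −8.6 ± 12.3 in the same order, and Rere, a transcriptional corepressor gene, 588.0 ± 119.4, 9.5 ± 13.2 and 15.0 ± 21.3. Plk1, a mitotic kinase gene, and Exosc10, which encodes a nuclease of the RNA exosome, had B6 means of 426.9 ± 128.5 and 335.9 ± 27.0.

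Of these genes, Iah1, Rere and Plk1 had another named probe, and in no case did that probe show the B6 pattern. For Iah1 the other probe was detected in all 18 brains, at 198.7 ± 57.4 in B6, 151.0 ± 21.7 in A/J and 146.3 ± 40.9 in C10 congenic brains (SD, n = 6). Its log2 difference was 0.26 between B6 and A/J (limma adjusted p 0.2) and 0.30 between B6 and C10 congenic (0.144), neither called. The other probe of Rere (9.2 ± 17.9 in B6) was detected in no brain of any line. That of Plk1 (29.1 ± 19.4 in B6) was detected in 1 A/J brain only. Both were too dim to compare the lines. Like Zcchc3, these genes thus had a B6-only probe beside another without that pattern, and among them the other probe was detected in every brain for Iah1 alone.

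**Figure D5:**
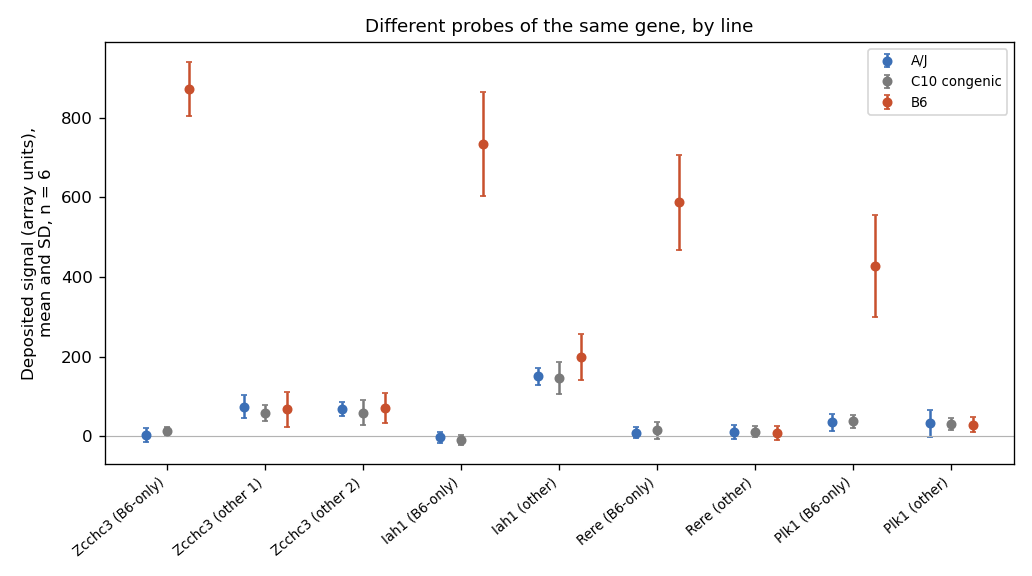
Mean and SD (n = 6) of the deposited signal (array units) in A/J (blue), C10 congenic (grey) and B6 (red) for each named probe of Zcchc3, Iah1, Rere and Plk1. The B6-only probes reach B6 means of 426.9 to 872.7, while the other probes stay at 9.2 to 198.7 in B6 and show no such gap between lines.

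The genes beside the members on their chromosomes were measured thinly. Of 50 neighbours, 5 on each side of the 5 placed genes, 8 had a named probe. Those described here are Tgs1 beside Tmem68, Iah1 near Asap2 and Trub1 near Atrnl1, set against the 15.6% of 4365 named genes called between B6 and A/J, 10.8% between B6 and C10 congenic and 0.848% between C10 congenic and A/J. Trub1, a pseudouridine synthase gene, gave 497.2 ± 102.2 in B6, 396.2 ± 61.7 in A/J and 312.2 ± 61.3 in C10 congenic brains (SD, n = 6). It was higher in B6 than in C10 congenic (log2 difference 0.56, SE 0.127, adjusted p 0.00334 by limma) but was not called against A/J (0.27, adjusted p 0.153). Tgs1, which encodes an enzyme that modifies RNA caps, had 3 named probes, of which the brightest kept one is described. That probe was detected in all 18 brains. It was not called for B6 against A/J (−0.15, limma adjusted p 0.413) or C10 congenic (−0.03, adjusted p 0.911). None of these 3 neighbours was called between C10 congenic and A/J. Iah1 stands here by its probe detected in all 18 brains, while its other probe had the B6-only pattern given above.

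Genes of the members' pathways came from lists chosen with earlier results in view, and the lists are too small to set their counts apart from the 15.6% and 10.8% of all named genes called for B6 against A/J and against C10 congenic. Of 11 kept genes of Arf GTPases and their regulators, the partners of Asap2, none was called in any of the 3 comparisons. The median log2 differences were 0.011 for B6 minus A/J and 0.040 for B6 minus C10 congenic, against −0.030 and 0.002 over all named genes. Likewise none was called of 4 kept genes of monocarboxylate transport, around Emb, and of 2 of the attractin and melanocortin pathway, around Atrnl1.

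In each of the other 3 lists 1 gene was called, always lower in B6. Of 7 kept genes of phosphatidylserine and phosphatidylethanolamine synthesis, around Pisd-ps3, Chkb (a choline and ethanolamine kinase) was lower in B6 than in A/J (log2 difference −0.38, SE 0.0981, adjusted p 0.00872 by limma). Its signals averaged 1033.7 ± 92.0 for B6, 1368.4 ± 115.6 for A/J and 1211.4 ± 176.6 for C10 congenic (SD, n = 6). Chkb was not called between B6 and C10 congenic. Of 4 kept genes of glycerolipid acylation and triacylglycerol storage, around Tmem68, Lpin2 (a phosphatidate phosphatase) was lower in B6 than in A/J by a log2 value of −0.58 (adjusted p 0.00214) and than in C10 congenic by −0.52 (0.00764). Of 6 kept genes of nucleic acid sensing and CCHC zinc fingers, around Zcchc3, Tbk1 (a kinase of innate immune signalling) was lower in B6 than in A/J by −0.50 (0.0022) and than in C10 congenic by −0.34 (0.0444). Its signals were 1374.7 ± 215.0 in B6, 1963.6 ± 160.7 in A/J and 1759.8 ± 230.0 in C10 congenic brains. None of the listed genes was called between C10 congenic and A/J.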

How the data were processed

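Per the submitters' processing notes, the newborn arrays were read with BeadStudio. The deposited signal is an intensity per probe that the authors had background subtracted and brought to nearly equal distributions (medians 26.3 to 26.9, lowest value −59), as the values show. The authors' deposited detection score, 0 to 1, was read as 1 minus a detection p, which no label or header states. The sources used here state neither a version nor a genome build. The authors' series table was identical (largest difference 0). The hippocampal arrays were not used here.

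The 6 genes, the lists and the tests were chosen with earlier results of these data known. Zero-padded numbers in probe IDs were read as Gene IDs, an inference (82.6% of 11897 are Gene IDs in the RefSeq table of GRCm38.p6), which named 9832 probes. Another 449 were named by accession and 696 by clone, 34622 stayed unnamed, and 517 control probes were left out. Named besides the members were up to 6 genes with their pattern and the largest bounds, up to 3 called genes per list and comparison, and called neighbours, some of which are not reported here.

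Signals were shifted by 75 (lowest value 16), taken to log2 and quantile normalized. The 15883 probes with a detection p under 0.01 on at least 6 of 18 arrays were fitted with limma 3.58.1 in R 4.3.3, with 1 coefficient per line and Benjamini-Hochberg adjustment at 0.05. The script was tested on simulated data. Where a gene had several kept probes the brightest stood for it (4365 genes). A bound sets the B6 mean against the probe's signal on each array of the dim line, raised to that array's lowest detected signal where it was under it. The number of arrays limits the precision. Replicates were taken as brains of separate animals, for which the sample titles give only a replicate number. Equal replicate numbers were not taken as pairs, and the values do not settle whether they mark any. Correlations of deviations between brains of equal number ran from −0.0914 to 0.333 over 18 pairs, with 8 above 0.1.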

Additional observations from a re-analysis of the deposited data

Results flagged for a closer look

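Within groups of 6 brains, 1 of 24 sets of values for the probes of the 6 genes held a brain far from the rest. The Asap2 signal of B6 replicate 1 was 777.9, whereas the other 5 B6 brains lay between 1340.5 and 1664.5. Its gap to the nearest brain was 0.635 of the whole range, above Dixon's 95% critical value for 6 samples. Chance alone marks about 1 in 20 such groups. The same brain had the highest B6 signal of Pisd-ps3 (2664.4) and the lowest of Atrnl1 (541.0).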

How the results depend on the processing

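Of 312 bounds of B6 against either line under the alternatives, 57 moved by over 1 SD and none reversed, a direction that the choice of the genes fixes. Most of the 312 came from leaving out 1 brain or from the identical series table, and none of those moved by that much. Normexp background correction, a detection p under 0.001 and the ratio without a shift each moved all 12 bounds. The fits of the 6 genes between C10 congenic and A/J say nothing about stability, since both lines were below detection. Normexp background correction (neqc), which had to infer a control SD of 364 to 434 from the detection p, gave bounds against A/J of 8.23-fold for Tmem68, 5.39 for Pisd-ps3, 4.02 for Asap2, 2.39 for Zcchc3, 1.85 for Atrnl1 and 1.48 for Emb. The inferred SD was far above the lowest detected signals of 79.2 to 101.4, so little rests on these bounds. A detection p under 0.001 gave 6.94, 4.94, 3.92, 2.6, 1.98 and 1.46, since the lowest detected signal is then higher. The ratio without a shift, chosen after seeing the data, gave 28.5, 21.2, 16.1, 10.1, 7.59 and 5.32.

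The number of probes called between C10 congenic and A/J was 148, but 1 with no filter on dim probes, 224 with the replicate block and 17 to 325 with 1 brain left out (17 without A/J replicate 1 or without C10 congenic replicate 6, 325 without B6 replicate 4). With a detection p under 0.001, 1667 probes were called for B6 minus A/J (main 2559) and 1122 for B6 minus C10 congenic (main 1919), and 62 had the B6-only pattern (main 97, and 97 to 112 with 1 brain left out). Without 1 brain the B6 counts were 2026 to 2933 and 1530 to 2266. Equal numbers were not taken as pairs (4 of 18 brains correlated best with their own number). Leaving out each brain gave log2 differences between C10 congenic and A/J of 0.20 to 0.39 for Tmem68, 0.03 to 0.10 for Pisd-ps3, 0.25 to 0.44 for Asap2, 0.10 to 0.27 for Zcchc3, −0.07 to 0.18 for Atrnl1 and −0.13 to 0.11 for Emb. Signals under 79.2 to 101.4 did not pass a detection p under 0.01, so lower levels in A/J and C10 congenic brains did not count as detected.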
